A study of Mus musculus with 9 samples.

Results

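The nuclear genes for the subunits of mitochondrial respiratory complexes I to V were followed in mouse bone-marrow-derived mast cells. They were taken by symbol, as every gene on the array whose name starts with Nduf, Uqcr, Cox4 to Cox8 or Atp5, or is Sdha, Sdhb, Sdhc or Sdhd. Of 16593 named genes on the array, 85 matched. Of these, 5 have a probe in the study's own figure table and were set aside, which left 80 genes. After a filter on detection 71 of the 80 were measured, among 7449 features (named genes and unnamed probes) tested in all. By complex, 30 of 31 genes of complex I were measured, 4 of 5 assembly factors that share the Nduf name, 3 of 3 of complex II, 5 of 7 of complex III, 14 of 19 of complex IV and 15 of 15 of complex V. The genes counted under complex I include Ndufs5-ps, the array's symbol of a pseudogene, and no probe was named Sdha.

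The cells came from AhR null mice, from AhR-d mice and from normal control mice, with 3 Illumina Ref-8 arrays per genotype, and the labels give the strain C57BL/6J for every sample. The aryl hydrocarbon receptor (AhR) is a transcription factor switched on by small ligands, among them dioxins and dietary indoles. AhR null mice lack the functional receptor, and the d allele is known for a receptor that binds its ligands less tightly than that of C57BL/6J mice. All 9 cultures were grown for 4 weeks in 30% medium conditioned by WEHI-3 cells, which supplies interleukin-3, purified by bead depletion of other cells, and kept for 4 h without cytokine before RNA was taken. Replicates were 3 culture batches with 1 array of each genotype per batch. No label says whether a batch stands for 1 animal, so p-values measure the spread between cultures. In bulk RNA, a lower signal per cell and fewer cells of a type cannot be told apart.

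Complexes I to IV pass electrons from NADH and succinate to oxygen and, except for complex II, pump protons out of the matrix. Complex V lets the protons back in and makes ATP. Most subunits are encoded in the nucleus, and the cores of complexes I, III, IV and V also hold subunits encoded in mitochondrial DNA, none of which has a named probe on this array. Resting mast cells use mitochondrial ATP, and degranulation is known to draw on oxidative phosphorylation.

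On the arrays 7901 to 9733 probes were detected, meaning that the detection p-value in the table was under 0.01. Mean raw signal was 523 to 636.1 on AhR null arrays, 338.4 to 684.2 on AhR-d arrays and 324 to 526.7 on control arrays. Of 15 mast cell marker genes, 15 were detected on every AhR null array, 14 or 15 on AhR-d arrays and 13 or 14 on control arrays. Summed normalised signal of 13 neutrophil markers was 1296 to 2113 on AhR null arrays, 364 to 5462 on AhR-d arrays and 351 to 363 on control arrays, where none was detected. Ngp, Camp, Retnlg, Mmp8 and Fcnb of that list were not detected on any array. For 10 monocyte and macrophage markers the sums were 3496 to 8516 on AhR null, 2716 to 15098 on AhR-d and 1329 to 3727 on control arrays, with Ccr2 and C1qa never detected. For 12 erythroid and megakaryocyte markers the sums were 5237 to 10619 on AhR null, 4203 to 6646 on AhR-d and 3992 to 5442 on control arrays, with Alas2 and Gp1bb never detected.

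Among the measured genes of the respiratory complexes, 1 passed the test between genotypes. Cox7a2l, which encodes a factor known for joining complexes III and IV into supercomplexes, rose in AhR null cells by 0.92 on the log2 scale (SE 0.19, limma adjusted p = 0.00564, n = 3 arrays each), a fold of 1.89. It was the 1 member of 71 (1.41%) that passed an adjusted p under 0.05 in AhR null against control, where 12.4% of all features passed (6.56% higher, 5.8% lower). At an unadjusted p under 0.05 the count was 11 of 71, or 15.5%, against 28.3% of all features. With batch as a block in the fit, 3 members passed higher (Cox6b2, Cox7a2l and Uqcrh), which is 4.23% against 10.8% of all features, and 2 passed lower (Atp5e and Ndufb6), which is 2.82% against 10.4%. Together these 5 are 7.04%, against 21.2%.

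In AhR-d against control, limma called 0 of 71 members, where 0.336% of all features passed. There, 1 member (Cox7a2l) had an unadjusted p under 0.05, against 7.53% of all features, and with the batch block 0 passed, against 1.58%. For AhR null against AhR-d, limma called 0 of 71, where 2.48% of all features passed. In that comparison 4 members had an unadjusted p under 0.05 (Cox6c higher, and Cox7b, Ndufaf5 and Ndufs7 lower), against 16.7% of all features, and with the block the count was 0, against 6.74%. The first 2 of these 3 comparisons share the control arrays.

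The members' log2 differences in AhR null against control had a median of 0.00, with the middle 50% between -0.21 and 0.25, beside a median of -0.03 and a range of -0.35 to 0.33 for the middle 50% of all features. They ran from -0.85 for Atp5k to 0.92 for Cox7a2l, with 36 above 0 and 35 below, and 66 of 71 lay within 0.5 of 0. The median within batches 1, 2 and 3 was -0.04, 0.03 and 0.10. In AhR-d against control the members' median was 0.03, beside -0.01 for all features. These values are relative to quantile-normalised arrays. In the authors' deposited log2 values the members' median in AhR null against control was 0.43 while all features shifted by 0.29, and after median scaling it was 0.52 while all features shifted by 0.53, so small negative differences given below can turn positive there.

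**Figure D1:**
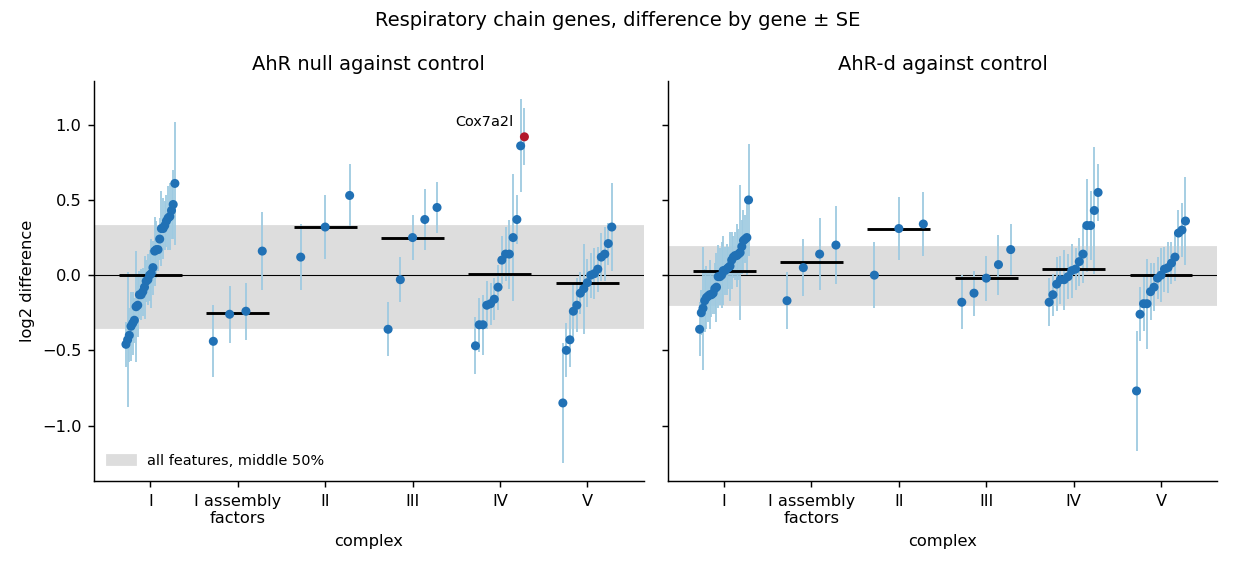
Log2 difference of each measured gene, by complex, in AhR null against control (left) and AhR-d against control (right). Points are genes with their standard error, black bars the median of each complex, and the grey band the middle 50% of all 7449 features; the red point is Cox7a2l, which passed the test in AhR null.

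On the quantile-normalised scale, precision was high enough to bound most of these differences. The intervals do not include the shifts between scalings given above. In AhR null against control, the 95% interval of the log2 difference lay inside a 2-fold change either way for 65 of 71 members (91.5%), against 57.5% of all features. The 6 that did not were Atp5k, Cox6b2, Cox7a1, Cox7a2l, Ndufb10 and Ndufb11. For AhR-d against control the count was 66 of 71 (93%) against 73.8% of all features. Inside a 1.5-fold change lay 28 members (39.4%) in AhR null and 47 (66.2%) in AhR-d against control, so differences of that size were not excluded for the rest. The SD of a member over all 9 arrays had a median of 0.24, against 0.35 for all features, and 0.23 against 0.31 for those detected on every array.

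Groups that do not overlap were about as frequent among the members as elsewhere, or less so. All 3 AhR null arrays lay above all 3 control arrays for 11 of 71 members (15.5%), against 16.9% of all features. All 3 lay below for 7 (9.86%), against 17.4%. The members above were Atp5mpl, Cox6b2, Cox6c, Cox7a2l, Ndufa2, Ndufa5, Ndufs3, Ndufv2, Ndufv3, Sdhb and Uqcrh. Those below were Atp5e, Atp5h, Cox6a1, Ndufa9, Ndufaf4, Ndufb6 and Ndufv1. AhR-d arrays lay above all control arrays for 3 members (Atp5pb, Cox6b2 and Cox7a2l), beside 5.06% of all features, and below for 2 (Atp5k and Ndufb7), beside 5.44%. AhR null arrays lay above all AhR-d arrays for 4 members (Cox6c, Ndufv3, Uqcrb and Uqcrc2), beside 11.1% of all features. They lay below for 8 (Atp5pb, Cox5b, Cox7b, Ndufab1, Ndufaf5, Ndufb2, Ndufs7 and Ndufs8), beside 12.4%. These genes were listed after their values were seen. The lists rest on the brightest probe of each gene, and other probes can read otherwise, as for Cox6a1 and Ndufaf5 below.

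The start sites of 3 genes are shown because they had the smallest p of their complexes in AhR null against control, Cox7a2l in IV, Uqcrh in III and Sdhb in II, although the probes of Sdhb disagree in sign. Each window runs from 150 bases before to 30 after the RefSeq start on assembly GRCm38.p6, and positions count from that start. Capitals mark letters of 4 motifs found on either strand: the NRF-1 core GCGCATGC, the ETS-type site CCGGAAG bound by GABP (NRF-2), the YY1 site AAGATGGC and the core GCGTG of the xenobiotic response element, to which AhR with its partner Arnt can bind. NRF-1, GABP and YY1 are known regulators of nuclear genes for mitochondrial proteins. Cox7a2l lies on the minus strand at chr17:83514304-83514483, Uqcrh on the minus strand at chr4:116075041-116075220, and Sdhb on the plus strand at chr4:140961121-140961300.
Cox7a2l: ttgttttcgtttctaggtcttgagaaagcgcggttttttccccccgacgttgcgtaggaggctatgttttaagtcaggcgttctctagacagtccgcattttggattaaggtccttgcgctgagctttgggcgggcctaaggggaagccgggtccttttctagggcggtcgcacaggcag
Uqcrh: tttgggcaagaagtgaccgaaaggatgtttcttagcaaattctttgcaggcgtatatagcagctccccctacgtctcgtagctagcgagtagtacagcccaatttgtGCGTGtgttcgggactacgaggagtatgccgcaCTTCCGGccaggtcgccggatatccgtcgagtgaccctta
Sdhb: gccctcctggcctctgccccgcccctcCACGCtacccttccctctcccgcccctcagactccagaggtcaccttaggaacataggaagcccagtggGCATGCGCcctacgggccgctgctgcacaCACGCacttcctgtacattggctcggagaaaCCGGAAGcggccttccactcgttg
None of the 4 motifs is in the Cox7a2l window, which holds only GC boxes (GGGCGG) at -22 and 13. Uqcrh has an ETS-type site at -10 and a response element core at -43. Sdhb has an NRF-1 core at -54, an ETS-type site at 7 and response element cores at -123 and -25. Its window also holds GC boxes at -132 and -104, which are not marked by capitals. A match is a description of the letters and not a binding site.

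RefSeq windows from 250 bases before to 50 after the start were available for 65 of the 80 genes, as 70 windows. An NRF-1 core was in 8 of the 70 (11.4%), against 5.76% of 7332 windows of the genes measured here and 2.71% of all 32851 windows. The ETS-type site was in 17 (24.3%), against 19.2% and 8.86%. The YY1 site was in 9 (12.9%), against 5.05% and 2.75%. Any of these 3 was in 28 windows (40%), against 27.3% and 13.3%. The response element core was in 39 (55.7%), against 51.3% and 32.4%, the GC box in 29 (41.4%), against 62.7% and 35.7%, and the TATA box TATAAA in 8 (11.4%), against 7.19% and 13.6%. These motifs were searched on both strands, and windows of 1 gene with several starts overlap.

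**Figure D2:**
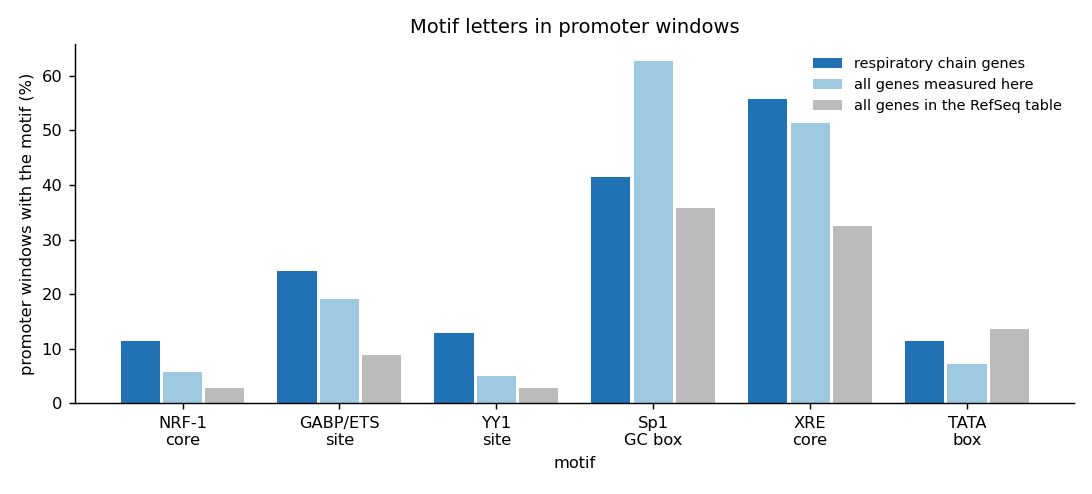
Share of promoter windows (%) that hold each of 6 motifs, for the 70 windows of the respiratory chain genes, the 7332 windows of genes measured here and all 32851 windows of the RefSeq table. The bars for NRF-1, GABP/ETS and YY1 are higher for the respiratory chain genes than for both other sets, and the Sp1 GC box stands at 41.4% against 62.7% of measured genes.

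Complex I oxidises NADH on its matrix arm and pumps protons through its membrane arm. In AhR null against control, limma called 0 of its 30 measured genes. An unadjusted p under 0.05 was reached by 3 (Ndufa5, Ndufa9 and Ndufb6), and 1 (Ndufb6, lower) passed with the batch block. The median difference was 0.00, with 15 genes above 0 and 15 below, and 29 of 30 within 0.5 of 0. The median was 0.05 for 5 core subunits of the matrix arm, 0.13 for 10 accessory subunits of that arm and -0.08 for 14 accessory subunits of the membrane arm. The pseudogene symbol Ndufs5-ps, also counted among the 30, differed by 0.17. In AhR-d against control the median over the 30 was 0.03, and no gene passed with any fit that was run.

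Among the core subunits, Ndufv1 carries the flavin that takes electrons from NADH. Its normalised log2 signal was 10.84, 10.51 and 10.48 on AhR null arrays, 10.88, 10.72 and 10.73 on AhR-d arrays and 10.99, 10.88 and 10.86 on control arrays. AhR null lay below control without overlap, by a margin that did not pass the test (-0.30, SE 0.15, limma adjusted p = 0.229). Ndufv2, its iron-sulfur partner, differed by 0.17 (SE 0.14, adjusted p = 0.478), and Ndufs3, another core subunit of the matrix arm, by 0.39 (SE 0.22, adjusted p = 0.278). The probe for Ndufs1, which holds further iron-sulfur clusters, was not detected on any array. Ndufs7, which holds the last cluster before ubiquinone, was at 10.69, 10.72 and 10.84 on AhR null arrays, 11.06, 10.97 and 11.26 on AhR-d arrays and 11.03, 10.68 and 10.86 on control arrays. AhR null lay below AhR-d without overlap (-0.34, SE 0.16, adjusted p = 0.287) and overlapped control (-0.11, SE 0.16, adjusted p = 0.696).

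The accessory subunits of the matrix arm likewise lay on both sides of control. Ndufa9, which binds NADPH near the ubiquinone site, was at 10.11, 10.16 and 10.47 on AhR null arrays, 10.08, 10.26 and 10.51 on AhR-d arrays and 10.50, 10.53 and 10.90 on control arrays. Both altered genotypes had nearly the same range, and AhR null lay just below control without overlap (-0.40, SE 0.18, adjusted p = 0.166), by -0.40, -0.37 and -0.43 in batches 1 to 3. Ndufa5 was at 10.02, 10.32 and 10.40 on AhR null arrays, 10.25, 9.83 and 9.68 on AhR-d arrays and 9.95, 9.92 and 9.60 on control arrays. AhR null lay above control without overlap (0.43, SE 0.19, adjusted p = 0.169), by 0.08, 0.40 and 0.80 in batches 1 to 3, while a second probe of the gene differed by -0.10 (SE 0.25, adjusted p = 0.83 in the fit over all probes). The 10 accessory genes of this arm lay between -0.40 and 0.43, with 6 above 0 and 4 below. Ndufv2, Ndufs3, Ndufs7, Ndufa9 and Ndufa5 were chosen after their values were seen.

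Ndufb6, an accessory subunit of the membrane arm, stood at 11.03, 10.92 and 10.86 on AhR null arrays, 11.18, 10.98 and 11.28 on AhR-d arrays and 11.49, 11.25 and 11.44 on control arrays. All AhR null arrays lay below all control arrays, and AhR-d arrays overlapped both groups. The difference in AhR null against control was -0.46 (SE 0.15, limma adjusted p = 0.0615), and with the batch block it passed (adjusted p = 0.0255). It was -0.46, -0.32 and -0.58 in batches 1, 2 and 3. The sign depends on the scaling, since values without quantile normalisation gave 0.03 (the authors' deposited log2 values) and 0.07 (median scaling), where all features shift by 0.29 and 0.53. A second, dimmer probe of Ndufb6, detected on 3 arrays, differed by 0.75 (SE 0.37, adjusted p = 0.206).

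Ndufa1, a small membrane-arm subunit needed for assembly, was at 12.04, 12.82 and 12.30 on AhR null arrays, 12.13, 12.20 and 11.59 on AhR-d arrays and 12.16, 12.01 and 11.58 on control arrays, with overlap among all groups (AhR null against control 0.47, SE 0.23, adjusted p = 0.187). Ndufa13, also known as GRIM-19, averaged 12.86 ± 0.07 on AhR null, 12.78 ± 0.21 on AhR-d and 12.90 ± 0.11 on control arrays (SD, n = 3 each). Ndufb10 had the widest spread of the complex, at 5.73, 7.22 and 7.22 on AhR null, 6.95, 7.78 and 7.17 on AhR-d and 7.80, 7.42 and 6.24 on control arrays. Its batch differences had both signs (-2.07, -0.20 and 0.98), so no direction can be read. Ndufb11 was detected on 3 AhR null, 2 AhR-d and 1 control array and differed by 0.61 in AhR null against control (SE 0.41, adjusted p = 0.366). Ndufab1, the mitochondrial acyl carrier protein that is also a subunit of the complex, was detected on 1 AhR null, 2 AhR-d and 0 control arrays, close to background in all groups.

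Ndufs4, an accessory subunit whose loss in mice gives a Leigh-like encephalopathy, has 4 measured probes, and they disagreed. The probe with the highest signal differed by -0.08 in AhR null against control (SE 0.21, adjusted p = 0.844 in the fit over all probes). The other 3 differed by 0.79 (SE 0.21, adjusted p = 0.0263), 0.41 (SE 0.20, adjusted p = 0.207) and 0.41 (SE 0.18, adjusted p = 0.154). On the probe that passed, AhR null arrays read 10.08, 10.19 and 10.24, AhR-d arrays 9.91, 9.87 and 9.83 and control arrays 9.81, 9.42 and 8.88. Ndufs4 was chosen for this description after its values were seen.

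The Nduf name also covers assembly factors, proteins that build complex I and do not stay in it. In AhR null against control limma called 0 of 4, with 0 at an unadjusted p under 0.05 and 0 with the batch block, and the median was -0.25 (0.25 in deposited values and 0.39 after median scaling) beside 0.09 in AhR-d against control. Ndufaf5, which hydroxylates an arginine of the core subunit Ndufs7, was at 7.88, 8.02 and 8.03 on AhR null arrays, 8.45, 8.53 and 8.70 on AhR-d arrays and 8.87, 8.47 and 7.92 on control arrays. AhR null lay below AhR-d without overlap (-0.58, SE 0.24, limma adjusted p = 0.24) and overlapped control (-0.44, SE 0.24, adjusted p = 0.25). A dimmer probe of Ndufaf5, detected on all 9 arrays, averaged 6.71 on AhR null and 6.71 on AhR-d arrays, with overlap. Against control that probe differed by -0.30 in AhR null (SE 0.28, limma adjusted p = 0.528 in the fit over all probes). Ndufaf1 differed from control by -0.24 (SE 0.19, adjusted p = 0.454), Ndufaf4 by -0.26 (SE 0.19, adjusted p = 0.408) and Ndufaf7, a methyltransferase, by 0.16 (SE 0.26, adjusted p = 0.736). Ndufaf3 was detected on 1 array and was not tested.

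Complex II oxidises succinate in the citric acid cycle and passes the electrons to ubiquinone. The 3 measured genes had positive mean differences in AhR null against control, with a median of 0.32, and limma called 0 of 3 (1, Sdhb, at an unadjusted p under 0.05, and 0 with the batch block). Sdhb, the iron-sulfur subunit, was at 9.92, 9.79 and 9.78 on AhR null arrays, 9.34, 9.74 and 9.84 on AhR-d arrays and 9.49, 9.51 and 8.90 on control arrays. The AhR null arrays lay above all controls and the AhR-d arrays overlapped both (AhR null against control 0.53, SE 0.21, adjusted p = 0.111). Sdhc and Sdhd anchor the complex in the membrane. Sdhd differed by 0.32 (SE 0.21, adjusted p = 0.35) and Sdhc by 0.12 (SE 0.22, adjusted p = 0.759). No probe was named for Sdha, the flavoprotein, so it was not measured.

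Control replicate 3 stood apart from the other arrays for this complex, and the size of these differences rests on it. Without that array the median in AhR null against control was 0.15, with Sdhb at 0.33, Sdhd at 0.15 and Sdhc at -0.13. On it the median deviation of the 3 genes from their 9-array means was -0.56, against -0.01 and -0.06 on the other control arrays and 0.18, 0.22 and 0.00 on AhR null arrays. The median of all features deviated by -0.03 to 0.02 on every array. Within batches, the median difference of the complex was 0.19, 0.27 and 0.54 in AhR null against control and -0.15, 0.23 and 0.55 in AhR-d against control, whose median was 0.31.

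**Figure D3:**
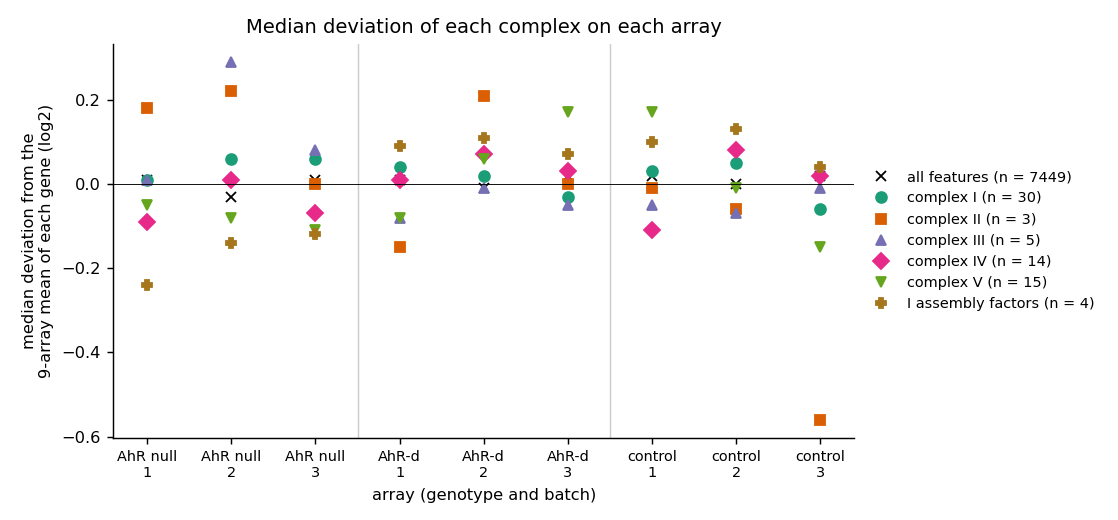
Median deviation (log2) of the genes of each complex from their 9-array means, for each array, with all 7449 features as crosses. Most points lie near 0; complex II lies at -0.56 on control replicate 3 and the median of the 4 assembly factors lies below 0 on all 3 AhR null arrays, while their group median turns positive in the deposited values and after median scaling.

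The probes of Sdhb disagreed further. Beside the probe used above, a second one differed by -0.64 in AhR null against control (SE 0.24, adjusted p = 0.1 in the fit over all probes). The remaining probe rose by 1.05 (SE 0.20, adjusted p = 0.00375), at 8.98, 9.24 and 9.23 on AhR null arrays, 8.48, 8.37 and 8.30 on AhR-d arrays and 7.90, 8.33 and 8.06 on control arrays. On that probe AhR null stood above both other groups without overlap. When every kept probe was its own feature, 11.7% of 9777 probes passed in AhR null against control, and 3 of 85 member probes, 1 each of Sdhb, Cox7a2l and Ndufs4, all higher. Several probes were measured for 11 members (25 probes). In 7 of the 11 they differed in sign, and the largest gap between probes of 1 gene was 1.69, for Sdhb. Which transcript each probe reads was not tested.

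**Figure D4:**
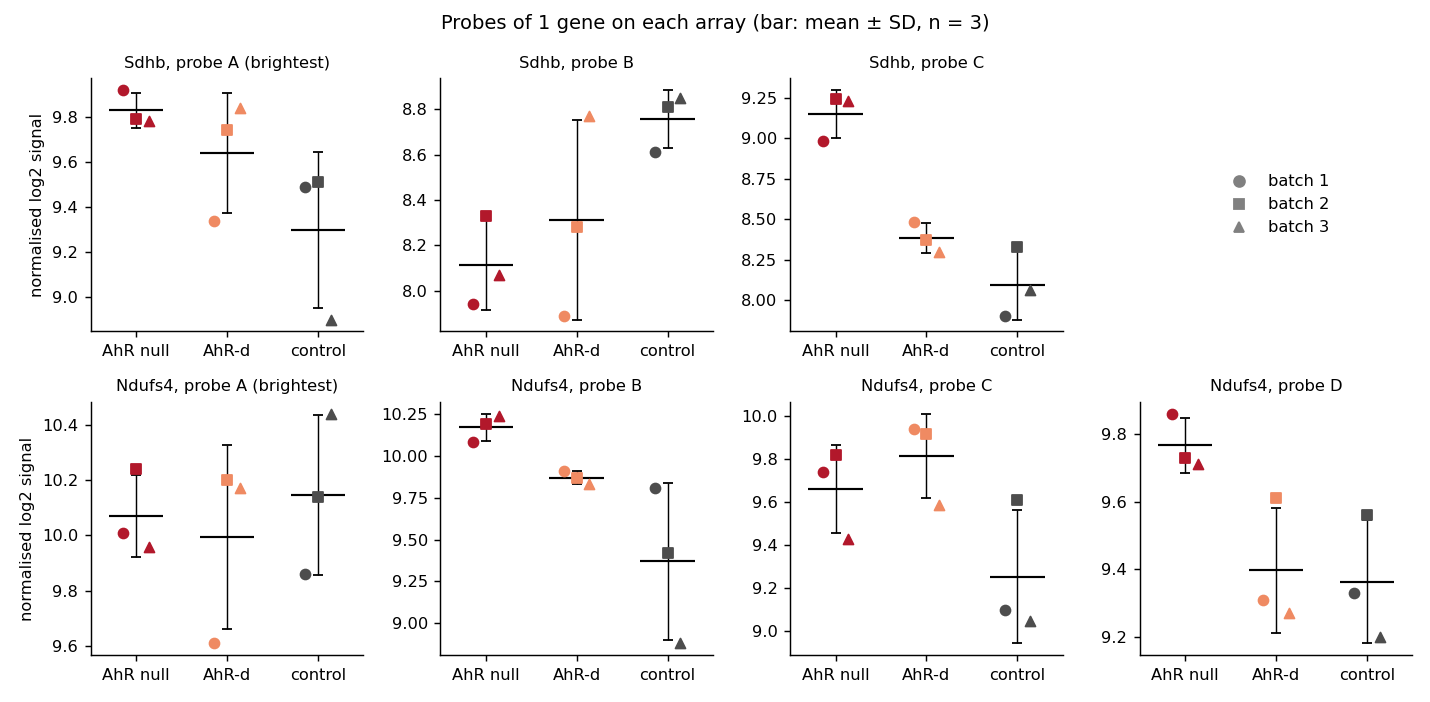
Normalised log2 signal of the 3 probes of Sdhb (top) and the 4 probes of Ndufs4 (bottom) on each array, by genotype, with mean ± SD (n = 3); marker shapes are batches and each panel has its own axis. Probe C of Sdhb and probe B of Ndufs4 are higher on all AhR null arrays than on all control arrays, while probe B of Sdhb is lower.

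Complex III passes electrons from ubiquinol to cytochrome c. In AhR null against control limma called 0 of 5 measured genes (1, Uqcrh, at an unadjusted p under 0.05 and with the batch block), with a median of 0.25 beside -0.02 in AhR-d against control. Uqcrh, the hinge subunit that helps cytochrome c1 meet cytochrome c, was at 12.39, 12.69 and 12.77 on AhR null arrays, 12.36, 12.27 and 12.39 on AhR-d arrays and 11.82, 12.31 and 12.37 on control arrays. AhR null lay just above control without overlap (12.39 against a highest control of 12.37), and AhR-d overlapped both. The difference was 0.45 (SE 0.17, limma adjusted p = 0.0962; with the block adjusted p = 0.028), at 0.56, 0.39 and 0.41 in batches 1 to 3. The AhR-d difference was 0.17 (SE 0.17, adjusted p = 0.872). The window of Uqcrh above holds an ETS-type site at -10 and a response element core at -43. The ETS-type site is in 17 of the 70 member windows, those of Ndufb6 and Atp5e among them. Any part of these sites was not tested.

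Uqcrb, a small subunit near the ubiquinone site, was at 11.65, 11.96 and 11.59 on AhR null, 11.38, 11.53 and 11.39 on AhR-d and 11.64, 11.58 and 10.87 on control arrays, where replicate 3 was again the lowest. Its difference in AhR null against control was 0.37 (SE 0.20, adjusted p = 0.235). The remaining genes went both ways. Uqcrc2, a core protein named after its values were seen, differed by 0.25 (SE 0.15, adjusted p = 0.286), Uqcr10 by -0.03 (SE 0.15, adjusted p = 0.923) and Uqcr11 by -0.36 (SE 0.18, adjusted p = 0.217). The probes for Uqcrfs1, the Rieske iron-sulfur protein, and for Uqcrq were not detected on any array.

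Complex IV reduces oxygen with the electrons of cytochrome c. Several of its subunits exist as tissue isoforms, and of 7 such genes on the array 2 were measured. Cox6a2, the heart and muscle form, Cox4i2, a form known from lung, Cox7b2, Cox8b and Cox8c were not detected on any array. Cox7a1, the heart and muscle form, was detected on 2 AhR null, 1 AhR-d and 0 control arrays and gave no fold above the background bound. Of 14 measured genes, limma called 1, Cox7a2l, in AhR null against control, and the median was 0.01, beside 0.04 in AhR-d against control.

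Cox7a2l resembles subunit VIIa and is known to hold complex III to complex IV. Mouse strains carry a longer or a shorter form of the protein, and C57BL/6J is known for the shorter one. Its signal was 10.44, 10.68 and 10.95 on AhR null arrays, 10.23, 10.53 and 10.20 on AhR-d arrays and 9.51, 9.90 and 9.89 on control arrays. All AhR null arrays and all AhR-d arrays lay above all control arrays, and the 2 altered genotypes overlapped each other. AhR null exceeded control by 0.92, 0.78 and 1.06 in batches 1, 2 and 3, and the 95% interval of the difference ran from 0.52 to 1.32. AhR-d exceeded control by 0.55 (SE 0.19), which did not pass (limma adjusted p = 0.356; with the batch block adjusted p = 0.106), and AhR null against AhR-d gave 0.36 (SE 0.19, adjusted p = 0.348).

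With any 1 array left out, the AhR null difference of Cox7a2l stayed between 0.79 and 1.04, with adjusted p from 0.00624 to 0.0343. It lost its call when the median log2 raw signal of each array entered the fit as a brightness covariate (0.84, adjusted p = 0.0707). Median raw signal was 190.9 to 210.4 on AhR null arrays and 134.5 to 194.6 on control arrays, and its part in the result was not tested further. The gene has 1 probe. Summed signal of neutrophil markers also stood higher on AhR null arrays than on controls (1296 to 2113 against 351 to 363). The sums of monocyte and macrophage markers (3496 to 8516 against 1329 to 3727) and of erythroid and megakaryocyte markers (5237 to 10619 against 3992 to 5442) had higher medians on AhR null arrays, with overlap. Their part in the result was not tested. Whether the form of Cox7a2l differs between these mice, or joins the complexes in these cells, was not tested.

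**Figure D5:**
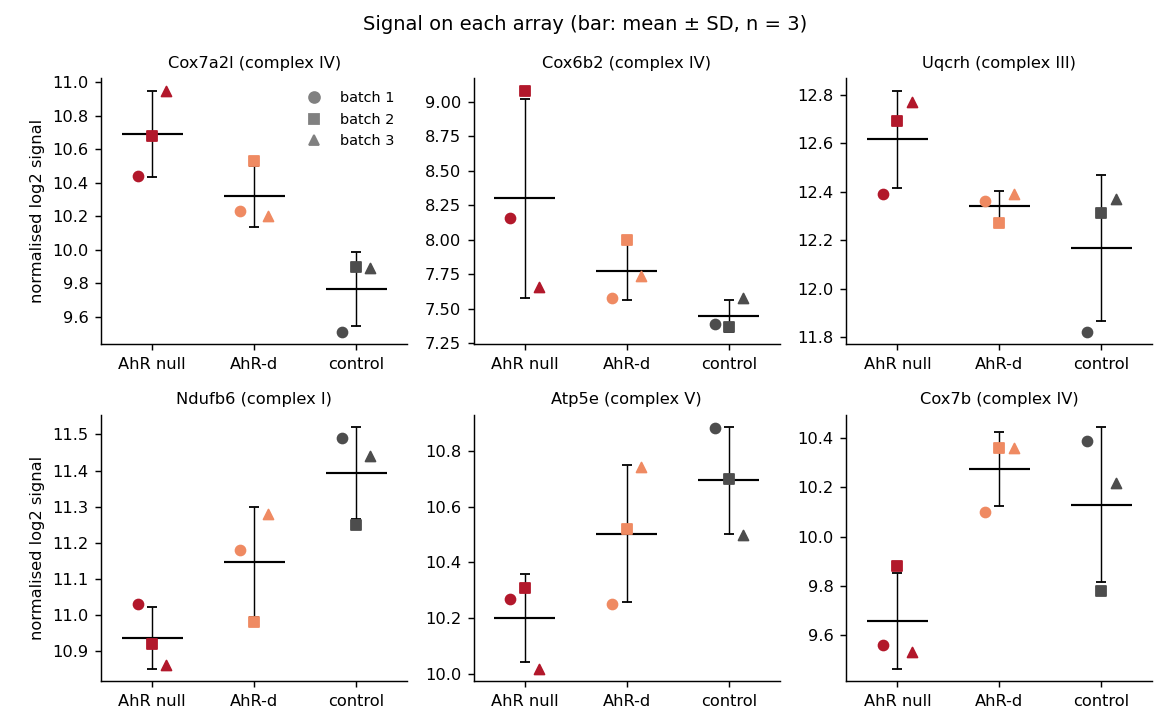
Normalised log2 signal on each array for 6 genes, by genotype, with mean ± SD (n = 3); marker shapes are batches and each panel has its own axis. Cox7a2l is the gene that passed the test in AhR null against control; Cox6b2 is pulled up by AhR null replicate 2 at 9.08, and Ndufb6 and Atp5e lie below control on all 3 AhR null arrays.

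Cox6b2, known as the testis form of subunit VIb, was at 8.16, 9.08 and 7.66 on AhR null arrays, 7.58, 8.0 and 7.74 on AhR-d arrays and 7.39, 7.37 and 7.58 on control arrays. AhR null lay above control without overlap, with replicate 2 far above the other AhR null arrays. The difference was 0.86 (SE 0.31, limma adjusted p = 0.0871; with the block adjusted p = 0.035), but only 0.08 in batch 3 against 0.77 and 1.71 in batches 1 and 2. Without AhR null replicate 2 the difference was 0.47 (limma adjusted p = 0.345), and without AhR null replicate 3 it was 1.18 and passed (limma adjusted p = 0.0276). The AhR-d difference from control was 0.33 (SE 0.31, adjusted p = 0.87).

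The 11 general subunits of complex IV differed by -0.47 to 0.37 in AhR null against control, and none passed. Cox4i1, the common form of the regulatory subunit, averaged 12.22 ± 0.24 on AhR null, 12.11 ± 0.18 on AhR-d and 12.08 ± 0.32 on control arrays (SD, n = 3 each). Cox5a differed by -0.33 in AhR null against control (SE 0.18, adjusted p = 0.265), Cox5b by -0.16 (SE 0.14, adjusted p = 0.495), Cox6a1 by -0.19 (SE 0.14, adjusted p = 0.425), Cox7a2 by -0.33 (SE 0.20, adjusted p = 0.307) and Cox8a by -0.08 (SE 0.15, adjusted p = 0.77). The median of the 11 was -0.16. Another probe of Cox6a1, detected on all 9 arrays, had the opposite sign in AhR null against control (0.49, SE 0.23, limma adjusted p = 0.192 in the fit over all probes). Ndufa4, once counted in complex I and now in complex IV, differed by 0.14 in AhR null (SE 0.23, adjusted p = 0.723) and by 0.33 in AhR-d cells (SE 0.23, adjusted p = 0.813), each set against control. Cox6c, a small membrane subunit named after its values were seen, differed by 0.37 (SE 0.16, adjusted p = 0.15).

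Cox7b, a subunit needed for assembly of the complex, was at 9.56, 9.88 and 9.53 on AhR null arrays, 10.10, 10.36 and 10.36 on AhR-d arrays and 10.39, 9.78 and 10.22 on control arrays. AhR null lay below AhR-d without overlap (-0.61, SE 0.19, limma adjusted p = 0.129) and overlapped control at control replicate 2. Against control it differed by -0.47 (SE 0.19, adjusted p = 0.127), and it passed without control replicate 2 (-0.65, adjusted p = 0.047). Its sign too depends on scaling, at 0.06 in the authors' deposited log2 values and 0.11 after median scaling.

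Complex V makes ATP in its F1 head, driven by protons through the Fo part in the membrane. In AhR null against control limma called 0 of 15 genes (2, Atp5e and Atp5h, at an unadjusted p under 0.05, and 1, Atp5e, with the batch block). The median was -0.12 for 5 F1 genes and -0.02 for 10 Fo and stalk genes, and -0.05 over all 15, beside 0.00 in AhR-d against control. Atp5a1 and Atp5b, the alpha and beta subunits that form the catalytic ring, averaged 11.99 ± 0.21 and 13.48 ± 0.11 on AhR null, 12.20 ± 0.26 and 13.57 ± 0.21 on AhR-d and 12.20 ± 0.23 and 13.60 ± 0.12 on control arrays (SD, n = 3 each). Their differences in AhR null against control were -0.20 (SE 0.18, adjusted p = 0.486) and -0.12 (SE 0.14, adjusted p = 0.626).

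Atp5e, the epsilon subunit of the F1 stalk, was at 10.27, 10.31 and 10.02 on AhR null arrays, 10.25, 10.52 and 10.74 on AhR-d arrays and 10.88, 10.70 and 10.50 on control arrays. AhR null lay below control without overlap, and AhR-d overlapped both. The difference was -0.50 (SE 0.18, limma adjusted p = 0.0841; with the block adjusted p = 0.0493), at -0.62, -0.39 and -0.48 in batches 1 to 3. As for Ndufb6, it was near 0 without quantile normalisation, at 0.03 in the authors' deposited log2 values and 0.08 after median scaling. Atp5h, the d subunit of the peripheral stalk, named after its values were seen, differed by -0.43 (SE 0.18, adjusted p = 0.125).

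Atp5g1 and Atp5g3 encode the same mature c subunit of the proton-driven ring. Atp5g1 was at 10.73, 10.45 and 10.30 on AhR null, 10.70, 10.57 and 10.34 on AhR-d and 10.76, 10.48 and 9.31 on control arrays. Its difference of 0.32 (SE 0.29, adjusted p = 0.515) was uneven over the batches, at -0.02 and -0.03 in batches 1 and 2 and 0.99 in batch 3, which holds that low control array. Atp5g3 differed by -0.24 (SE 0.19, adjusted p = 0.446). Atp5k, the e subunit that helps the enzyme form dimers, was detected on 1 AhR null, 0 AhR-d and 3 control arrays. It was at 4.99, 5.31 and 6.14 on AhR null arrays, 4.85, 5.86 and 5.98 on AhR-d arrays and 6.06, 6.38 and 6.55 on control arrays. The difference in AhR null against control was -0.85 (SE 0.40, adjusted p = 0.179). In AhR-d the background bound was 1.23-fold lower, and the difference from control did not pass (limma adjusted p = 0.716). The 3 control arrays alone met the detection filter, so a lower signal in the other groups is partly built into the choice of this gene. Values this close to background carry little weight.

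The rest of the stalk and Fo genes showed no common direction. Atp5pb, the b subunit of the peripheral stalk, was at 10.63, 10.60 and 10.59 on AhR null arrays, 10.76, 10.94 and 10.94 on AhR-d arrays and 10.69, 10.69 and 10.44 on control arrays. AhR-d lay above both other groups without overlap, by 0.28 over control (SE 0.15, adjusted p = 0.724), and AhR null against AhR-d gave -0.27 (SE 0.15, adjusted p = 0.375). Atp5o, the subunit that ties the stalk to the F1 head, was at 6.94, 7.14 and 6.83 on AhR null, 7.37, 6.77 and 6.48 on AhR-d and 7.46, 7.01 and 6.72 on control arrays, with full overlap (-0.09 in AhR null against control, SE 0.30, adjusted p = 0.867). Atp5mpl, a small proteolipid of the enzyme, averaged 12.06 ± 0.08 on AhR null, 11.93 ± 0.15 on AhR-d and 11.85 ± 0.12 on control arrays (SD, n = 3 each), a difference of 0.21 in AhR null against control (SE 0.14, adjusted p = 0.364). Of the 10 genes 5 lay above 0 and 5 below in AhR null against control, and again 5 and 5 in AhR-d against control. Atp5pb and Atp5o were chosen after their values were seen.

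The 5 genes with probes in the study's figure table are given apart, since the study chose those probes on these samples and their direction is not independent evidence. Atp5g2, another gene for the c subunit, rose in AhR null by 1.02 (SE 0.28, limma adjusted p = 0.031), at 9.16, 9.89 and 9.22 on AhR null, 9.11, 9.34 and 8.95 on AhR-d and 8.56, 8.89 and 7.77 on control arrays. Its adjusted p reached 0.137 with 1 array left out, and the call was lost when that array was AhR null replicate 1 or 2 or control replicate 1 or 3. Uqcrc1, the other core protein of complex III, differed by 0.59 (SE 0.22, adjusted p = 0.099; with the block adjusted p = 0.0455, with only the 2 genotypes in the fit adjusted p = 0.0423, and without AhR-d replicate 3 adjusted p = 0.0454). Ndufb4 differed by 0.40 (SE 0.17, adjusted p = 0.143), Ndufb8 by 0.29 (SE 0.14, adjusted p = 0.177) and Ndufa8 by -0.10 (SE 0.16, adjusted p = 0.717).

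Other genes of mitochondrial assembly and metabolism were read from 5 further lists in the same fit. Of their 96 measured genes 5 passed in AhR null against control, all higher, which is 5.21% against 12.4% of all features. With the batch block 12 passed, 8 higher and 4 lower, which is 12.5% against 21.2%. Neither share exceeded that of all features. Of 35 measured assembly factors of the 5 complexes, the 4 with Nduf names included, 0 passed and the median was -0.16. An unadjusted p under 0.05 was reached by 2 of them, against 28.3% of all features. With the block 2 of them passed lower: Ecsit, an assembly factor of complex I (-0.73, adjusted p = 0.0675; with the block adjusted p = 0.0342), and Surf1, an assembly factor of complex IV (-0.78, adjusted p = 0.0969; with the block adjusted p = 0.0468). In the authors' deposited log2 values these differences were -0.08 and -0.09. Of 11 electron carriers and subunits outside the names above, 1 rose: Etfb, a subunit of the flavoprotein that feeds electrons from fatty acid oxidation to ubiquinone, by 1.12 (SE 0.21, adjusted p = 0.00348). Of 18 genes on the citric acid cycle list, which also holds pyruvate dehydrogenase subunits and cytosolic counterparts of cycle enzymes, 2 rose. They were Idh1, the cytosolic isocitrate dehydrogenase and not an enzyme of the mitochondrial cycle, by 0.91 (SE 0.26, adjusted p = 0.0344), and Fh1, fumarate hydratase, by 0.79 (SE 0.23, adjusted p = 0.0373).

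Etfb was at 10.18, 10.59 and 10.71 on AhR null, 9.81, 9.91 and 9.79 on AhR-d and 9.49, 9.67 and 8.94 on control arrays, with no overlap between any 2 of the groups. Of 16 regulators of mitochondrial biogenesis, 1 rose: Tfb2m, a factor for mitochondrial transcription, by 1.51 (SE 0.34, adjusted p = 0.00959); only 1 of 3 control arrays detected it. Of 16 carriers and import genes, 1 rose: Vdac3, a channel of the outer membrane, by 1.27 (SE 0.23, adjusted p = 0.00289), at 10.08, 10.13 and 10.31 on AhR null, 10.03, 9.60 and 9.05 on AhR-d and 9.07, 8.99 and 8.67 on control arrays. The other genes that passed with the block in AhR null against control were Pdha1 (0.96, block adjusted p = 0.0214), Ssbp1 (0.89, block adjusted p = 0.0175), Slc25a20 (0.65, block adjusted p = 0.0266), Sirt3 (-0.63, block adjusted p = 0.0214) and Idh3b (-0.47, block adjusted p = 0.0449). In deposited values and after median scaling, Sirt3 was at -0.09 and -0.06 and Idh3b at 0.06 and 0.11. The differences of Pdha1, Ssbp1 and Slc25a20 were larger under both scalings, where all features also shifted up. For AhR-d against control, limma called 0 of the 96 genes without the block and 0 with it, against 0.336% and 1.58% of all features. There 4 genes had an unadjusted p under 0.05, against 7.53% of all features. Between AhR null and AhR-d 0 passed without the block, against 2.48%, and 18 had an unadjusted p under 0.05, against 16.7%. With the block 2 passed (2.08%, against 6.74%), Ecsit (-0.80, block adjusted p = 0.0477) and Timm50, an import gene (-0.75, block adjusted p = 0.0378). In deposited values these 2 differences were -0.2 and -0.17. The genes that passed only with the block were named after their values were seen. Etfb and Vdac3 kept their calls with any 1 array left out (adjusted p up to 0.0197 and 0.0132). Idh1 lost its call without any 1 AhR null array or without control replicate 1 or 3 (adjusted p up to 0.123). For Fh1 the arrays whose removal ended the call were the 3 controls and replicates 1 and 2 of AhR null (adjusted p up to 0.147), and Tfb2m missed the threshold without AhR null replicate 1 (adjusted p = 0.0516).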

How the data were processed

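Gene expression was measured on 9 single-colour Illumina arrays. The deposited table holds signal intensity for 25697 probes without scaling between arrays, and per the file headers each intensity is followed by a detection p-value; the submitters' processing notes name GenomeStudio, with no version. The authors' deposited series table holds log2 values with the median of each array set to 8. The log2 intensity minus the deposited value is 1 constant per array (-0.928 to -0.231). A further 9 columns of per-sample detection values, in the study's figure table, were not used.

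From the intensities, background was modelled with normexp, 16 was added and arrays were quantile-normalised (neqc, limma 3.58.1, R 4.3.3). Probes with a detection p-value under 0.01 on at least 3 arrays were kept (9777), and the probe with the highest mean stood for its gene, which gave 6864 genes and 585 unnamed probes. One limma fit (lmFit, eBayes with trend) with a mean per genotype over the 9 arrays gave each comparison, with Benjamini-Hochberg adjustment over 7449 features and a threshold of 0.05. Adjusted p-values in the text come from limma, from this fit unless another is named. The residual degrees of freedom were 6. The fit was tested on simulated data. Intervals are 95% intervals of the moderated fit. A gene undetected on a whole group has only a bound there, for which each undetected value was raised to the array's lowest detected signal where it lay under it. The number of arrays limits the precision.

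The members and lists were chosen with earlier results of these data known. Named are members that passed, per complex the 2 largest differences each way, the 2 with most signal and the widest spread, and a set of well-known genes; further genes are marked as named after their values were seen, or appear in counts. From other lists, members that passed are named. Batch numbers pair the arrays: the labels give them, and deviations from genotype means correlated at 0.111 to 0.361 in the 9 same-batch pairs and at -0.361 to 0.0676 in the 18 others. Since each genotype was centred on its own mean, these ranges are not independent of each other. Symbols came from the platform annotation (23978 probes with 1 symbol). The alternatives were deposited values, median scaling, no background correction, cyclic loess, no filter, detection on all 9 arrays, mean of probes, batch block, 2 genotypes only, robust variances, brightness covariate and 1 array left out. Chosen after seeing the data were every probe as a feature, the 5 set-aside genes added back, and AhR-d replicates 2 and 3 left out. Promoter sequences are RefSeq's.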

Additional observations from a re-analysis of the deposited data

How the results depend on the processing

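Among the members, Cox7a2l passed in AhR null against control under every setting run except the brightness covariate, which left 0 of 71. The count was 2 in the authors' deposited log2 values and after median scaling (Cox6b2 added), 1 to 2 with 1 array left out, and, among settings chosen after seeing the data, 3 with every kept probe as a feature and 2 with the 5 set-aside genes. With the replicate block it was 5. In AhR-d against control and AhR null against AhR-d it was 0 under every setting run.

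Over all features, AhR null against control gave 921 calls, 1580 with the replicate block, 292 with the brightness covariate and 503 to 1000 with 1 array left out. AhR-d against control gave 25, and 118 with the block, 9 in deposited values, 41 after median scaling, 7 without background correction, 6 for features detected on all 9 arrays, 11 with the mean of probes, 10 with 2 genotypes only, 5 with the brightness covariate, 5 to 46 with 1 array left out and 0 without AhR-d replicates 2 and 3. AhR null against AhR-d gave 185, and 502 with the block, 55 without those 2 arrays and 82 to 243 with 1 array left out. The block changed no call of a named gene beyond those given above.

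Scaling moved the direction of the calls. AhR null against control had 489 higher and 432 lower, against 825 and 90 in deposited values and 837 and 86 after median scaling, where the median of all features shifted by 0.29 and 0.53 and that of the members by 0.43 and 0.52. AhR null against AhR-d had 61 higher and 124 lower, against 138 and 26 in deposited values and 88 and 36 after median scaling, with feature medians of 0.24 and 0.38. After median scaling AhR-d against control shifted by 0.16. With the brightness covariate Atp5g2, Fh1, Idh1, Tfb2m and Vdac3 lost their calls (adjusted p from 0.0528 to 0.186) and Etfb kept its own. Fh1 also lost its call without the filter (adjusted p = 0.0629). The causes were not tested. No named difference that passed without the block changed sign in any setting run. Of those that passed only with the block or with 1 array left out, Ndufb6, Atp5e, Idh3b and Cox7b turned sign in deposited values and after median scaling, with the values given above. Signals near background, as for Atp5k, Cox7a1 and Ndufab1, limit what can be read of those genes.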
